A study of Arabidopsis thaliana with 12 samples.

Results

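The comparison described here sets 3 arrays of the Arabidopsis thaliana mutant pmr6 against 3 arrays of the wild-type accession Col-0, taken by the genotype in the sample labels from a series of 12 arrays. All 6 samples were total RNA of untreated rosettes of plants 3 weeks old, grown at 22 °C with a photoperiod of 14 h, with 15 µg of it used for each labelling. The other 6 arrays are 3 of the double mutant pmr5 pmr6 and 3 of the single mutant pmr5, from plants of the same age and growth. The labels give no allele for pmr6, and they call the replicates biological without saying how many plants each held, so the p-values below rest on the spread among samples whose origin in separate plants or pools is not known. The measurements are Affymetrix ATH1 intensities, where a probe set is a group of short oligonucleotides designed against a transcript and the intensity is its summarised brightness in linear units.

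Powdery mildews are fungi that feed on living epidermal cells of leaves, and pmr mutants were found as plants on which such a fungus grows poorly. PMR6 encodes a protein related to pectate lyases, enzymes that cut the homogalacturonan chains of pectin, a gel-forming part of the plant cell wall. PMR5, the gene affected in the other single mutant, belongs to a plant family of proteins with a role in modifying cell wall polysaccharides. The series title presents these plants as cell wall mutants, and the question of the comparison is which transcript levels differ between untreated rosettes of pmr6 and of the wild type.

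No gene is named below, because the row identifiers of the deposited table could not be matched to its values. Over 146 pairs of rows that the probe annotation gives to one gene, the mean log2 levels of the pair members had a correlation of r = 0.05 as deposited. The identifier column was then moved against the values by every possible number of rows. The rule set for the identifiers asked for r of at least 0.5 at the best position, with the next best under 0.5 times that r. The best position gave r = 0.52, which met the first part, and the next best gave 0.47, which failed the second. The profiles of the pairs across arrays correlated at no more than 0.14 on average at any position. The first 9 rows, whose identifiers are those of Arabidopsis probe sets, had profiles that correlated at a mean of 0.94. Probe sets are therefore described by their values alone. For the same reason the PMR6 transcript could not be looked up in the pmr6 arrays, and leaf markers could not be used to check the tissue.

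The instrument records show 3 hybridization runs, each with 1 array of every genotype, and the replicate number is the run. In each run pmr6 was on fluidics module 3, Col-0 on module 1, pmr5 on module 2 and pmr5 pmr6 on module 4. Genotype and module therefore cannot be told apart in any comparison below. Median intensities were between 169.9 and 174.8 on the pmr6 arrays and between 168.4 and 175.2 on the Col-0 arrays. For pmr6 replicate 2 the scanner entries of the record were blank. Spearman correlations over the tested probe sets were between 0.98 and 0.983 among pmr6 arrays, between 0.973 and 0.979 among Col-0 arrays, and between 0.969 and 0.977 across the genotypes. The median SD of a probe set was 0.141 in pmr6 and 0.166 in Col-0 on the log2 scale (n = 3 each). For the 366 increases described below it was 0.135 in pmr6 and 0.184 in Col-0, and for the 102 of them that reached 2-fold it was 0.184 in pmr6 and 0.368 in Col-0.

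A small share of probe sets was called different between pmr6 and Col-0 rosettes. Among these calls the increases were both more frequent and larger than the decreases. Of 17059 probe sets tested, 579 differed (limma, Benjamini-Hochberg adjusted p under 0.05), which is 3.39% of those tested. Of these, 366 were higher in pmr6 (2.15%) and 213 lower (1.25%). The median increase was 1.61-fold and the median decrease 1.39-fold, on the scale of log2(intensity + 28), which understates the change of dim probe sets. Over all tested probe sets the median difference was -0.008 on the log2 scale, and 48.5% lay above 0, so by sign alone increases were not in excess. By size, with no call required, 134 probe sets were at least 2-fold higher and 26 at least 2-fold lower. The arrays had been scaled to the same mean level, so these values cannot tell whether levels shifted as a whole. Before adjustment, 2424 probe sets had a limma p under 0.05, a count that includes those that would pass without any difference. The 3.39% is the share called and not the share that differed. With the hybridization run as a block the count of calls was 637.

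The count depended on the variance model, and it fell when any pmr6 or Col-0 array was left out, which leaves fewer arrays in that group. Without pmr6 replicate 3, Col-0 replicate 2 or Col-0 replicate 1 it was 413, 393 and 555. It was 369 without pmr6 replicate 1, 337 without pmr6 replicate 2, 358 without Col-0 replicate 3, and 211 when the variance was not allowed to follow intensity. All 579 probe sets kept their direction in each of those settings, which largely follows from reusing the arrays that chose them. The increases made up 67.8%, 65%, 67.9% and 68.2% of the calls in the settings with 369, 337, 358 and 211 calls, against 63.2% with all arrays. The share was lower in other settings, at 58.9% with the 6 arrays of pmr6 and Col-0 only and 60.8% with the dimmest 50% left out.

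The direction of the calls separated further with size. Changes of at least 1.5-fold were found for 232 of the 366 increases and for 65 of the 213 decreases. At 2-fold the numbers were 102 and 10, at 3-fold 28 and 2, and at 4-fold 9 and 0. Most decreases were small: 69.5% of them were under 1.5-fold, against 36.6% of the increases. The smallest change called was 1.2-fold upward and 1.21-fold downward. A pseudocount of 100 in place of 28 compresses all fold changes and left 60 increases and 3 decreases of at least 2-fold.

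The probe sets that were higher by 2-fold or more covered a wide range of levels. Their mean intensity in pmr6 was between 73.43 and 6856, with a median of 538.9, and in Col-0 between 9.233 and 3139, with a median of 205.8. Of the 102, 30 had a mean under 100 in Col-0 and 2 had one in pmr6. The 10 probe sets lower by 2-fold or more had a median of 140.1 in pmr6 and 387.6 in Col-0, and 5 of them had a mean under 100 in pmr6.

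The strongest increases are given as H1 to H6, the 6 largest among called probe sets whose pmr6 arrays all lay above all Col-0 arrays. Probe set H1 had intensities of 1016, 1069.3 and 1903.7 in pmr6 replicates 1 to 3, against 303, 139.4 and 266.5 in Col-0. The lowest pmr6 array lay above the highest Col-0 array by a wide margin, and pmr6 replicate 3 stood highest. The difference was 5.14-fold (log2 2.36, SE 0.23, limma adjusted p = 3.0e-06). The level in pmr5 was 442 ± 103.7 (SD, n = 3), and H1 was also higher in pmr6 than in pmr5 (log2 1.5, SE 0.23, limma adjusted p = 0.0029). H1 was the only one of the 12 probe sets described in this way for which that test passed.

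Probe set H2 had 1299.9, 1310.2 and 901.5 in pmr6, against 484.8, 235 and 95 in Col-0. The Col-0 arrays spread about as widely among themselves as the groups lay apart, and its SE of 0.32 was the largest of the 6 (log2 2.21, limma adjusted p = 0.00022). Probe set H4 was the brightest of the 6, with 6773.4, 6025.2 and 5778.5 in pmr6, against 3055.9, 1108.3 and 744.5 in Col-0. In both, Col-0 replicate 1 stood nearest to the pmr6 arrays. The difference of H4 was 4.45-fold (log2 2.15, SE 0.3, limma adjusted p = 0.00016), and within the hybridization runs it was 1.14, 2.41 and 2.91 on the log2 scale.

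Probe sets H3 and H5 were dim in Col-0 and of middle brightness in pmr6. H3 had 470.2, 719.6 and 626.4 in pmr6, against 119.5, 130.4 and 89.4 in Col-0 (log2 2.16, SE 0.21, limma adjusted p = 2.6e-06). H5 had 433.7, 704.2 and 843.8 in pmr6, against 161.1, 91.1 and 123.9 in Col-0 (log2 2.14, SE 0.2, limma adjusted p = 2.6e-06). The groups lay well apart in both, and pmr6 replicate 1 was the lowest of the mutant arrays. H6 had 1421.2, 1249.8 and 1822.3 in pmr6, against 378.5, 426.3 and 197 in Col-0. Its Col-0 replicate 3 stood below the other Col-0 arrays, and the difference was 4.35-fold (log2 2.12, SE 0.2, limma adjusted p = 2.6e-06).

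The strongest decreases, L1 to L6, were chosen by the same rule downward and were dimmer. Probe set L1 had 23.3, 3.2 and 35.3 in pmr6, against 106.6, 146.2 and 165 in Col-0. The groups did not overlap, but the pmr6 values lay near the pseudocount, and the SE was 0.37 (log2 -1.83, limma adjusted p = 0.0057). L2 had 60.2, 56.9 and 40 in pmr6, against 192.1, 279.4 and 261.2 in Col-0 (log2 -1.75, SE 0.29, limma adjusted p = 8.0e-04). Its mutant arrays lay close together, and each was below every Col-0 array.

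Probe sets L3 and L4 were the least secure of the 12. L3 had 14, 31.5 and 12.1 in pmr6, against 96.7, 100.6 and 104.6 in Col-0, with a log2 difference of -1.47 (SE 0.38, limma adjusted p = 0.034). It missed the threshold whenever any 1 of the 6 arrays was left out, with limma adjusted p between 0.053 and 0.12. L4 had 12.4, 51 and 57.3 in pmr6, against 118.3, 111.1 and 142.6 in Col-0, where pmr6 replicate 1 was far below the other mutant arrays. Its difference was -1.22 on the log2 scale (SE 0.28, limma adjusted p = 0.016) and -0.88 without that array (limma adjusted p = 0.1).

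Probe sets L5 and L6 were of middle brightness. L5 had 175.8, 204 and 277.4 in pmr6, against 420.7, 619.6 and 552.6 in Col-0 (log2 -1.18, SE 0.17, limma adjusted p = 0.00025). L6 had 314.9, 314.3 and 280.3 in pmr6, against 586.2, 788.8 and 747.8 in Col-0 (log2 -1.14, SE 0.14, limma adjusted p = 4.4e-05). Both were lower in pmr6 in every run, and Col-0 replicate 1 was the lowest wild-type array in both. The plot of the 12 named probe sets shows these values with those of the other genotypes.

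**Figure D1:**
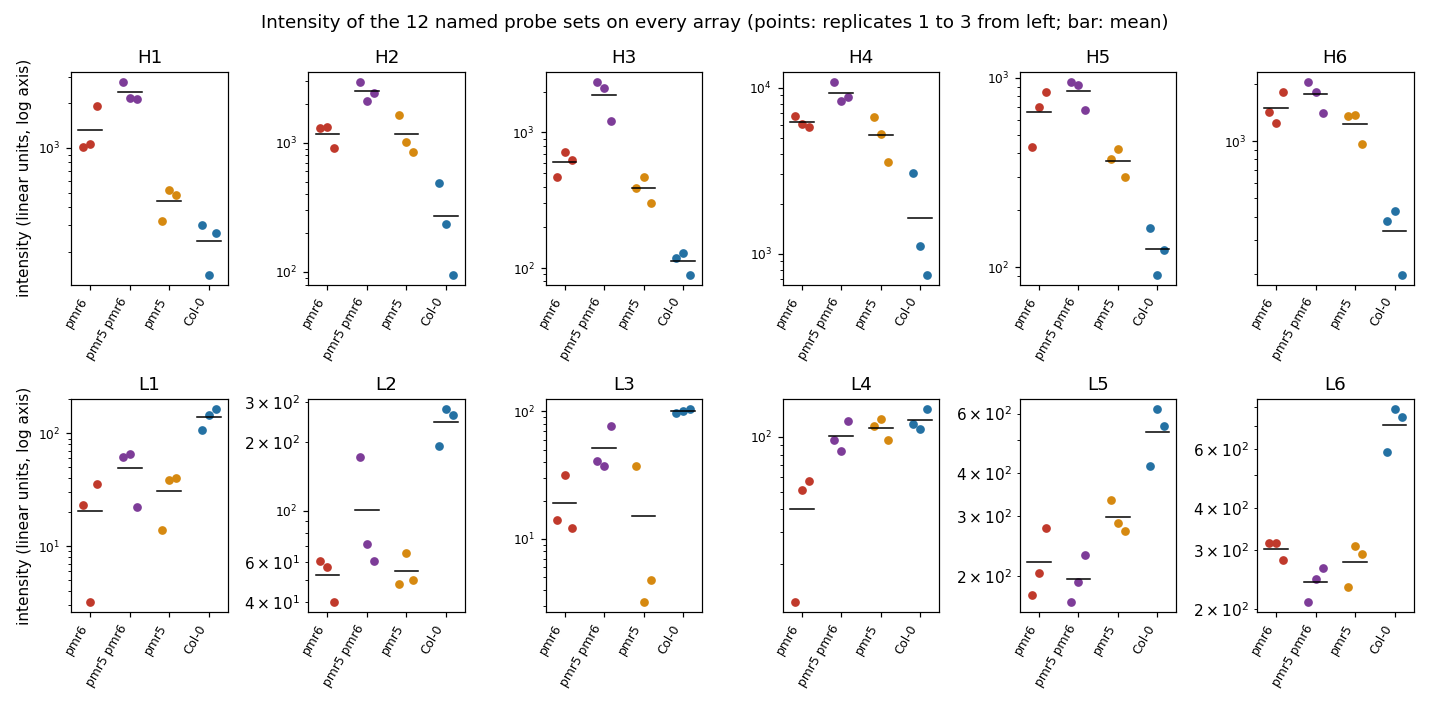
Intensity (linear units on a log axis, scaled separately for each panel) of the 6 largest increases (H1 to H6, upper row) and the 6 largest decreases (L1 to L6, lower row) in pmr6, pmr5 pmr6, pmr5 and Col-0. Points are replicates 1 to 3 from left and bars are means of 3 arrays. In each panel the 3 pmr6 points lie on one side of the 3 Col-0 points, by which the probe sets were chosen.

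The number of calls followed intensity. Probe sets were divided into 10 equal parts by their mean over the 12 arrays. In the dimmest part, with intensities between 34.8 and 56.2, 4 of 1706 were called (0.234%), and in the brightest 3 parts together 359 of 5118 (7.01%). The median SE of a difference fell along the same order, 0.4 on the log2 scale in the dimmest part and 0.08 in the brightest. The smallest change called was 1.35 on the log2 scale in the dimmest part and 0.26 in the brightest. Dim probe sets with moderate changes were not detectable with 3 arrays a group.

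The increases of at least 2-fold did not follow that order. Between 10 and 15 of them stood in each of the 8 brighter parts, and 2 in each of the dimmest parts. The decreases of at least 2-fold numbered 10, of which 6 lay in the dimmer 5 parts and 4 in the brighter 5. Above the sixth part only 2 were called, both in the brightest. Counted without any call, 134 probe sets were at least 2-fold higher and 26 at least 2-fold lower, and 16 of the 26 lay in the dimmest part, where 17 were higher. In the 5 brighter parts the calls numbered 293 higher and 191 lower, and in the 5 dimmer parts 73 and 22.

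**Figure D2:**
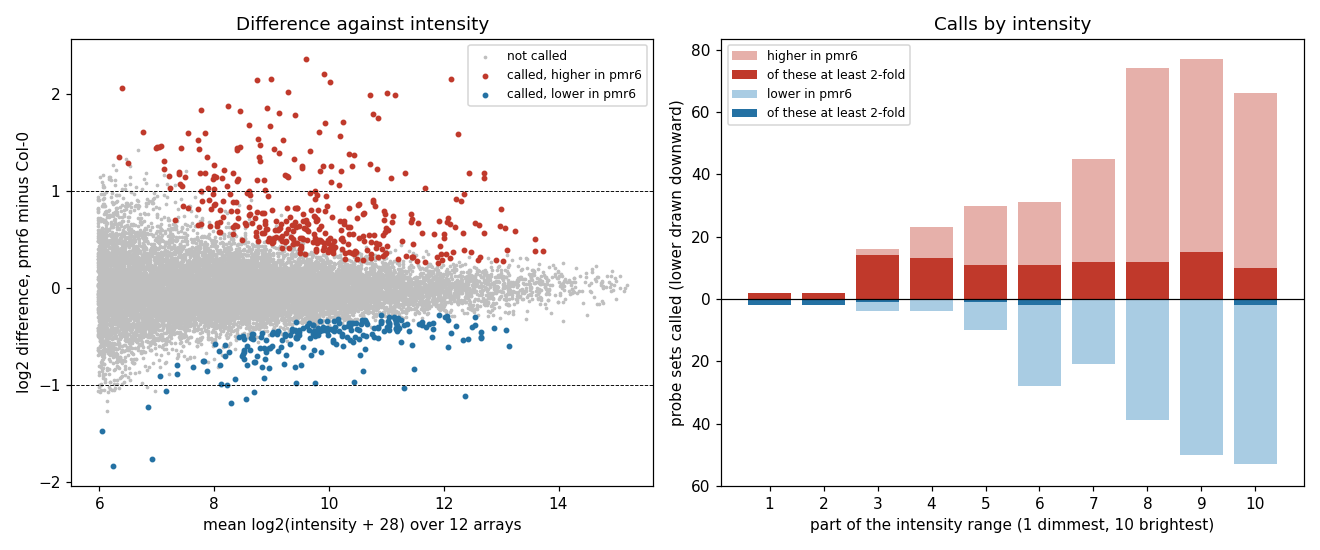
Left, the log2 difference pmr6 minus Col-0 of each of the 17059 probe sets against its mean log2(intensity + 28) over 12 arrays, with calls coloured and dashed lines at 2-fold. Right, the number called in each of the 10 parts of the intensity range, with increases drawn upward, decreases downward and changes of at least 2-fold in the darker shade. Increases of at least 2-fold number between 10 and 15 in each part above the dimmest 2, while the darker downward bars hold at most 2.

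The pmr6 and Col-0 arrays of the called probe sets rarely overlapped. All pmr6 arrays lay above all Col-0 arrays in 359 of the 366 increases, and below them in 212 of the 213 decreases. Among all 17059 tested, 9.4% were entirely above and 10.5% entirely below. The median gap between the nearest arrays of the groups was 0.33 on the log2 scale for the increases and 0.28 for the decreases. The same values chose the calls, so this describes them and does not support them.

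Within the hybridization runs, where 1 pmr6 array meets 1 Col-0 array, 365 of the 366 increases and all 213 decreases had the same sign in the 3 runs. Among all tested probe sets this held for 35.7% of those with a mean difference above 0 and 37.2% of those below 0. The same 6 arrays chose the calls, which largely fixes that agreement, so the counts are a description. The median difference of the increases was 0.55 in run 1 and 0.77 in each of runs 2 and 3, and that of the decreases was -0.5, -0.5 and -0.46 on the log2 scale. Among the increases, both arrays of run 1 were the most often nearest to the other genotype. Among the 213 decreases this held for Col-0 replicate 1 (99, against 62 and 52 for replicates 2 and 3). There pmr6 replicate 1 was the least often nearest (50, against 75 and 88). Among the 366 increases, pmr6 replicate 1 was the lowest pmr6 array in 141, against 95 and 130 for replicates 2 and 3, and Col-0 replicate 1 was the highest Col-0 array in 205, against 94 and 67. The median over the increases, relative to the Col-0 mean, was 0.66, 0.72 and 0.71 on the log2 scale in pmr6 replicates 1 to 3, against 0.1, -0.04 and -0.06 in Col-0. Over all 17059 probe sets Col-0 replicate 1 was the highest Col-0 array in 5940. Without Col-0 replicate 1, 148 probe sets in place of 112 were called at 2-fold or more, 134 of them higher.

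A run that took no part in the calling gives a measure of the size. Without run 1, 266 probe sets were called higher, and in run 1 247 of them had that sign (92.9%), with a median of 0.55 there against 0.92 in the runs that called them. Without run 2, 138 were called higher, 132 had that sign in run 2, and the medians were 1.03 and 1.04. Without run 3, 217 were called higher, 212 had that sign in run 3, and the medians were 0.87 and 0.79. The median in the run left out was close to that in the calling runs for runs 2 and 3 and was smaller for run 1.

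The decreases were smaller in the run left out in each case. The 100, 52 and 90 called without run 1, 2 or 3 had medians of -0.48, -0.49 and -0.45 in that run, against -0.6, -0.65 and -0.56 in the runs that called them. Of these, 93, 50 and 87 had the same sign in the run left out. Over all probe sets tested, between 57.6% and 63.9% of those of one sign in 2 runs had the same sign in the run left out, with medians between -0.09 and 0.07.

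**Figure D3:**
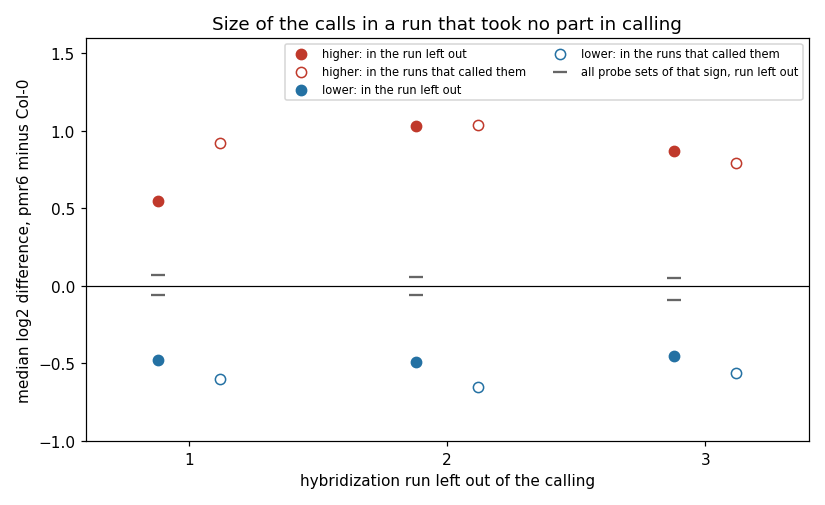
Median log2 difference, pmr6 minus Col-0, of probe sets called without a hybridization run, in that run (filled) and in the runs that called them (open), with grey dashes for all tested probe sets of the same sign in the run left out. The increases reach 0.55, 1.03 and 0.87 and the decreases -0.48, -0.49 and -0.45 in the runs left out, while the grey dashes lie between -0.09 and 0.07.

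The effect of pmr6 can also be read in plants that carry pmr5, as the difference between pmr5 pmr6 and pmr5. Those means come from other arrays, but all 12 arrays entered 1 model, so both comparisons share the residual SD, the prior and the dim filter, and their calls are not independent. There, pmr5 pmr6 was compared with pmr5, and 1.86% of probe sets were called higher and 1.34% lower. Of the 366 increases, 158 were called higher in pmr5 pmr6 than in pmr5, which is 43.2% of that list and 49.8% of the 317 called higher in the pmr5 background. Of the 213 decreases, 55 were called lower, 25.8% of that list and 24% of the 229 called lower. None was called in the opposite direction. The sign was the same in 326 of 366 and 191 of 213, where 48.2% of all probe sets were higher and 51.8% lower in the pmr5 background.

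The size in the pmr5 background was smaller. The median was 0.45 for the increases, against 0.68 in the Col-0 background, and -0.23 for the decreases, against -0.48. The probe sets were chosen for their difference from Col-0, which by itself favours larger values in that comparison. None of the 10 decreases of at least 2-fold was called lower in the pmr5 background, against 57 of the 102 increases. For H1 and H3, pmr5 pmr6 minus pmr5 was 2.37 (SE 0.23, limma adjusted p = 3.8e-06) and 2.17 (SE 0.21, limma adjusted p = 3.8e-06). These values lay within 1 SE of those against Col-0, with interactions of 0.01 (SE 0.32) and 0.02 (SE 0.29). H5 was also called there (log2 1.16, SE 0.2, limma adjusted p = 0.0022), while H2, H4 and H6 were not, with log2 values of 1.12, 0.88 and 0.5 (limma adjusted p = 0.062, 0.14 and 0.23).

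The single mutant pmr5 differed from the same Col-0 arrays in many of these probe sets, and because the controls are shared the values are given side by side only. The median over the 366 increases was 0.68 in pmr6 and 0.6 in pmr5, and over the 213 decreases -0.48 and -0.52. In pmr5, 255 of the increases were called higher, where the background was 4.19%, and 169 of the decreases lower, where it was 3.89%. A direct test of pmr6 against pmr5, which shares the pmr6 arrays, called 22 of the 366 increases higher and 7 lower in pmr6, and 3 and 2 of the 213 decreases. That test called 0.264% of all probe sets higher and 0.176% lower in pmr6. L4 had 40.2 ± 24.3 in pmr6 and 112.5 ± 14.8 in pmr5 (SD, n = 3 each), and the difference of -1.11 did not pass (SE 0.28, limma adjusted p = 0.095).

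Against the same Col-0 arrays, the median log2 difference in pmr5 pmr6 was 1.1 over the 366 increases and -0.77 over the 213 decreases. Of the 366 increases 339 were called higher there, and of the 213 decreases 194 were called lower. The share of all probe sets called in that comparison was not counted and the Col-0 arrays are shared, so these counts only describe the lists. Only 1 of the 579, singled out after its values were seen, was called higher in pmr6 and lower in the double mutant. It had 723.5, 717.8 and 798.5 in pmr6, against 485.5, 585.1 and 513.7 in Col-0 (log2 0.48, SE 0.13, limma adjusted p = 0.049). In pmr5 pmr6 it had 330.6, 444.8 and 305.1, below all of the Col-0 arrays (log2 -0.53, SE 0.13, limma adjusted p = 0.0063). The interaction, which tests whether pmr6 acts alike in both backgrounds, was -0.68 (SE 0.19) and did not pass (limma adjusted p = 0.23). The same test passed for 13 of the 579 probe sets called in pmr6 against Col-0, where it called 0.117% of all probe sets.

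**Figure D4:**
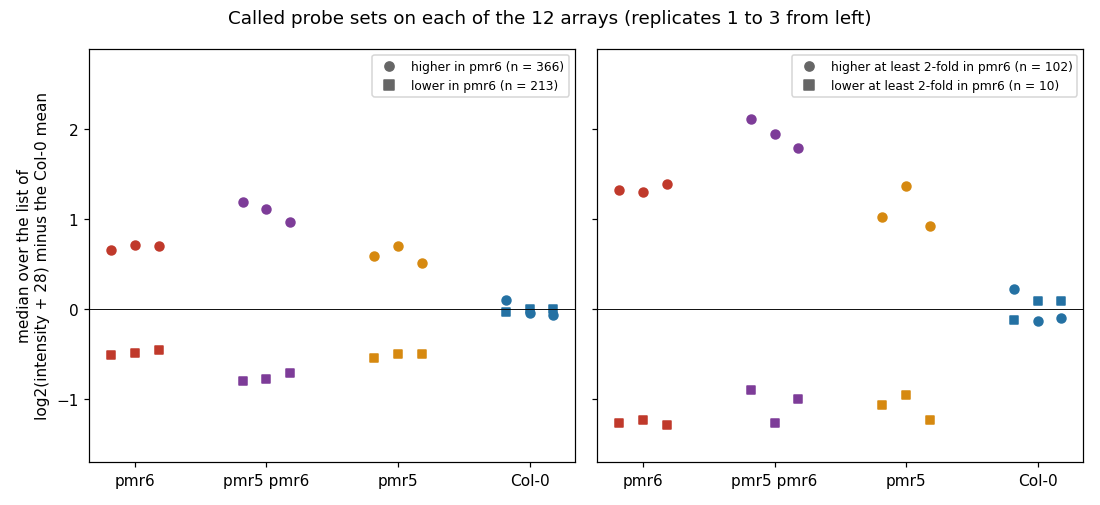
Median over the probe sets called higher (circles) or lower (squares) in pmr6, on each of the 12 arrays, of log2(intensity + 28) minus the Col-0 mean, for all calls (left) and for changes of at least 2-fold (right). Groups are pmr6, pmr5 pmr6, pmr5 and Col-0, with replicates 1 to 3 from left. The circles of the left panel lie between 0.66 and 0.72 in pmr6, and between -0.06 and 0.1 in Col-0. Those of the right panel lie between 1.31 and 1.39 in pmr6, and Col-0 replicate 1 is the highest Col-0 array at 0.23.

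The calls were not gathered in one stretch of the table. In the 10 equal parts of the table between 2.8% and 3.91% of the probe sets tested were called.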

How the data were processed

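The authors deposited 1 table of linear intensities for 22810 rows and 12 ATH1 arrays. Their scaling is known from the deposited values only, where the mean after leaving out the highest and lowest 2% was 500 or 500.1 on each array. Which software summarised the probes was not stated in the sources used here. No detection calls were used, so dim probe sets were judged by intensity, and the number of arrays limits the precision. The other values used, fluidics module and hybridization time, were read per the file headers of the instrument records, and times at most 30 minutes apart were taken as 1 run.

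Intensities were turned to log2(intensity + 28). The 64 rows with AFFX (control) identifiers and the dimmest 25% of the rest were left out. The 12 arrays entered 1 linear model of 4 genotype means (limma 3.58.1 under R 4.3.3; eBayes followed an intensity trend; 8 residual and 12 prior degrees of freedom). The fit was tested on simulated data. Tables and figures were made with pandas 2.3.3 and matplotlib 3.10.9 in Python 3.11.15. The probe annotation listed 14016 rows, 13513 with 1 gene symbol and 503 with several. Other row orders, tried after the values were seen (reversed, by identifier suffix, and aligned in windows), did not settle the identifiers either. By the rule set for it, identifiers that fail their check leave rows unnamed and the 6 largest non-overlapping changes per direction are described, so gene lists and markers were not applied. The comparison and its rules were chosen with earlier results of these data known.

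The replicate number marks a shared run in the instrument records, but deviations of same-numbered pmr6 and Col-0 arrays from their group means correlated at 0.006, -0.028 and 0.064.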

Additional observations from a re-analysis of the deposited data

Results flagged for a closer look

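The effect of pmr6 differed between the Col-0 and the pmr5 background for 13 of the 579 probe sets called in pmr6 against Col-0 (limma interaction, adjusted p under 0.05), where 0.117% of all probe sets were called. Of the 366 increases 9 fell below, and of the 213 decreases 4 rose above, the sum of the single-mutant changes. The interaction shares the pmr6 and Col-0 arrays with the comparison that chose these probe sets. For H6 the interaction was -1.62 (SE 0.29, limma adjusted p = 0.027): the difference was 0.5 between pmr5 pmr6 and pmr5, against 2.12 between pmr6 and Col-0, with 1761.5 ± 333.8 in pmr5 pmr6 and 1234.4 ± 233.6 in pmr5 (SD, n = 3 each). For L2 it was 2.31 (SE 0.41, limma adjusted p = 0.027), with 101.5 ± 61.6 in pmr5 pmr6 and 54.5 ± 9.7 in pmr5 (SD, n = 3 each). The difference of L2 was 0.56 between pmr5 pmr6 and pmr5, against -1.75 between pmr6 and Col-0. An intensity of 0 stands at 4.81 on this log2 scale, and whether the low level of L2 affected its interaction was not tested.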

How the results depend on the processing

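All 579 calls of pmr6 against Col-0 that were tested kept their direction in each alternative run. These runs reuse the arrays that chose the calls, which largely fixes that agreement. The count was between 490 and 647 with the other pseudocounts, dim filters, quantile normalization, robust trend, 6 arrays only, the first 64 rows left out as controls, and without both arrays with a raised dim end (pmr5 replicate 1 and pmr5 pmr6 replicate 3; chosen after seeing the data). Without the intensity trend it was 211, and pmr5 pmr6 against pmr5 gave 140 in place of 546; the cause was not tested. Leaving out 1 pmr6 or Col-0 array gave between 337 and 555 calls, and between 98 and 148 of at least 2-fold in place of 112. With a pseudocount of 100, which compresses fold changes, 63 reached 2-fold. The replicate block (equal to the run) gave 637 calls, 115 of at least 2-fold, and 612 for pmr5 pmr6 against pmr5, and changed no count by over 1.5 times. Of the named probe sets, L3 lost its call with a pseudocount of 4 (limma adjusted p = 0.11) and with any 1 of the 6 arrays left out, and L4 without pmr6 replicate 1 or Col-0 replicate 3 (limma adjusted p = 0.1 and 0.082); the other 10 kept theirs wherever tested. The size of dim probe sets moved with the pseudocount: the log2 value of L1 was -2.84 with a pseudocount of 4 and -0.99 with 100, and that of L3 -2.27 and -0.75. The sizes of H2 and H4 depended on which Col-0 array was left out. Without Col-0 replicate 1 they were 2.72 and 2.73, and without Col-0 replicate 3 they were 1.69 and 1.73.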
